A study of Mus musculus with 8 samples.

Results

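Il17rb, Chdh, Actr8 and Cacna1d are 4 neighbouring genes on mouse chromosome 14, described here in T cells of mice whose dendritic cells carry the costimulatory ligand CD70. They were chosen by name, with the lower values of Il17rb and Chdh in CD70Tg mice already known, to see whether the genes beside them are lower too. These are 4 of the 52636 rows of the expression table, and all 4 were among the 12816 that were tested, which needed 60 or more in 2 or more libraries. RNA was sequenced from splenic CD4+ Foxp3- conventional T cells (Tconvs) and CD4+ Foxp3+ regulatory T cells (Tregs), sorted by a Foxp3 eGFP reporter from mice aged 6 to 8 weeks, with 200000 cells per library. Control mice were CD27+/-. CD70Tg mice were CD11c-Cd70tg;CD27+/-, with CD70, which binds the receptor CD27, made in conventional dendritic cells from the CD11c promoter. All mice, controls included, therefore had 1 intact CD27 allele. Each of the 4 groups had 2 libraries. Nothing in the sources used here says whether the libraries of a group came from separate animals or from pools, so that the p-values given measure only the spread between these libraries.

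Il17rb encodes IL-17RB, a receptor chain which pairs with IL-17RA to bind IL-25, a cytokine of the IL-17 family known for type 2 immune responses. It is known on some invariant NKT cells, on group 2 innate lymphoid cells and on some helper T cells. Chdh encodes choline dehydrogenase, a mitochondrial enzyme that oxidises choline on the way to betaine, a methyl donor. Actr8 encodes an actin-related subunit of the INO80 chromatin remodelling complex, and Cacna1d the pore-forming subunit of an L-type voltage-gated calcium channel. Genes that start back to back can share a promoter, and genes in one stretch of chromatin can respond together, which is why the genes next to Il17rb and Chdh were looked at.

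The 4 genes lie within 513.1 kb of chromosome 14 in GRCm38 (mm10, annotation GENCODE M21). Actr8 lies on the plus strand at chr14:29978337-30006354. Il17rb lies on the minus strand at chr14:29996135-30008896, and its last exon bases run into those of Actr8. Chdh lies on the plus strand at chr14:30009023-30040527, so that Il17rb and Chdh are transcribed away from each other from start sites 127 bases apart. Cacna1d lies on the minus strand at chr14:30039939-30491455, meets the end of Chdh tail to tail, and starts 482.5 kb from the shared Il17rb and Chdh start. The exons of Il17rb and Actr8 share 141 bases (3.8% of the Il17rb exons), and those of Chdh and Cacna1d share 589 bases (9.5% of the Chdh exons and 4.7% of the Cacna1d exons), in each case on opposite strands. How reads in these bases were assigned is not given in the sources used here, so that in the overlaps the genes of a pair cannot be told apart.

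The stretch between the start sites of Il17rb and Chdh is shown because it lies before the first exon of both genes that were lower. RefSeq places these starts 104 bases apart, with the first base of Chdh upstream of the GENCODE start. The sequence (chr14:30008897-30009000, plus strand, GRCm38.p6, from RefSeq, ending on the first base of Chdh) has in capitals a GC box match near Il17rb and an AP-1 match at Chdh:
Il17rb-Chdh: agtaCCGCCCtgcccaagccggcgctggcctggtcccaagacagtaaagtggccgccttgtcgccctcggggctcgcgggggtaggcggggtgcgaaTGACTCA
It holds 10 CpG. RefSeq promoter windows run from 250 bases before to 50 after a start, and were found for 3 of the 4 genes (Il17rb, Chdh and Cacna1d). Chdh has 3 windows. The first, which is the Chdh window meant here, shares 203 bases with that of Il17rb. It holds 26 CpG, against a median of 7 over 32817 windows, and 83.1% of windows hold fewer. The other 2 Chdh windows, at starts inside the gene, hold 4 CpG each and no match to the motifs below. Motifs were searched on both strands. The AP-1 motif TGANTCA is in the Chdh window and in 7.81% of all windows, and the GC box GGGCGG is in it and in 35.6% of all windows. The window has no match to CCAAT (in 37.4% of windows), TATAAA (13.6%), the GATA motif AGATAA (11.2%) or the T-box motif AGGTGTGA (1.27%). Of the 2 Cacna1d windows, the outer holds 4 CpG and the inner 63. These matches are descriptions of the letters, and no binding was measured.

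Values are reads per gene, scaled by the authors to 20 M reads per library. The libraries differed in depth. From the size of the step between low values, reads on genes were 6.94 to 33.01 M in the Tconv libraries and 1.92 to 4.56 M in the Treg libraries, and the value given by 3 reads, taken as the floor, was 1.8 to 8.6 in Tconvs and 13.1 to 31.3 in Tregs. The shallowest library was the first CD70Tg Treg library in the order of the table. Foxp3 was 19769 to 21367 in the Treg libraries and 1039 to 1497 in the Tconv libraries, and Cd4 16100 or more in every library. The Tconv libraries, though sorted as Foxp3-, thus held some Foxp3. It was highest in the second control Tconv library, which also had the higher Il17rb and Chdh of its group. Whether Tregs among the sorted Tconvs add to these values was not tested.

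Il17rb was lower in both subsets of CD70Tg mice. In Tconvs its value was 36 and 72 in the control libraries and 3 and 9 in the CD70Tg libraries. In Tregs it was 117 and 198 in the control libraries and 63 and 39 in the CD70Tg libraries. The groups did not overlap in either subset, and the CD70Tg mean was 11.1% of the control mean in Tconvs and 32.4% in Tregs. These values rest on few reads. The CD70Tg Tconv values stand for 1 read, which is under the floor of that library, and 14 reads, and the CD70Tg Treg values for 6 and 7 reads, against 24 to 45 reads in each control library. On the log2(value + 5) scale, on which the change of a low gene is understated, the difference was -2.41 (SE 0.47) in Tconvs and -1.52 (SE 0.47) in Tregs. These differences carry no test, since they chose the gene. In sorted populations, fewer cells that express a gene and less RNA per cell cannot be told apart.

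Chdh, which starts back to back with Il17rb, had the higher values of the pair and was lower in the same groups. Its value was 151 and 216 in control and 29 and 33 in CD70Tg Tconvs. In Tregs it was 520 and 736 in control and 136 and 234 in CD70Tg libraries. Again no CD70Tg library reached the lowest control library of its subset. The CD70Tg mean was 16.9% of control in Tconvs (log2 difference -2.37, SE 0.31) and 29.5% in Tregs (-1.76, SE 0.31). At least 10 reads stood behind each Chdh value, more than behind the lowest Il17rb values.

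Actr8, whose end overlaps that of Il17rb, overlapped between control and CD70Tg mice, so that the 4 genes do not stand as a set that falls together. It was 816 and 838 in control and 770 and 897 in CD70Tg Tconvs, and 898 and 1060 in control and 972 and 854 in CD70Tg Tregs. The CD70Tg mean was 100.8% of control in Tconvs (log2 difference 0.01, SE 0.15) and 93.3% in Tregs (-0.10, SE 0.15), beside a median over all tested genes of 0.01 in Tconvs and -0.05 in Tregs.

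Cacna1d, on the other side of Chdh, differed between the subsets in its values. In Tconvs it was 72 and 49 in control and 44 and 60 in CD70Tg libraries, which overlap. In Tregs it was 93 and 162 in control and 53 and 71 in CD70Tg libraries, which do not. The CD70Tg mean was 86% of control in Tconvs (log2 difference -0.19, SE 0.38) and 48.6% in Tregs (-0.95, SE 0.38). The 53 of the shallowest library stands for 5 reads. Leaving out each library gave Treg differences of Cacna1d from -1.33, without the first control Treg library, to -0.56, without the second. Whether Cacna1d responded differently in the subsets was not tested.

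**Figure D1:**
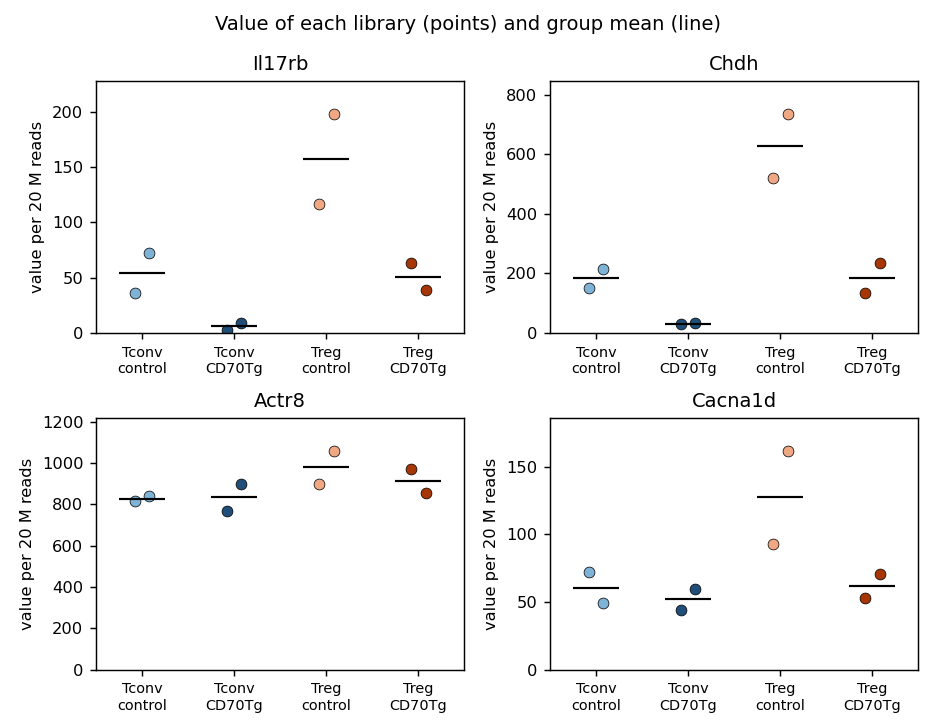
The value of each library (points, per 20 M reads, linear axis from 0) and the group mean (line) of Il17rb, Chdh, Actr8 and Cacna1d in control and CD70Tg Tconvs and Tregs, 2 libraries a group. Il17rb and Chdh lie lower in CD70Tg libraries of both subsets, Actr8 lies between 770 and 1060 throughout, and Cacna1d lies lower in Tregs, at 53 and 71 against 93 and 162.

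Counted over the 4 genes, 2 (Il17rb and Chdh) had both CD70Tg libraries under both control libraries in Tconvs, where 21.4% of all tested genes did, and 3 (these and Cacna1d) in Tregs, where 31.2% did. The count follows from how the genes were chosen and nothing is read from it.

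Il17rb and Chdh were both highest in control Tregs and lowest in CD70Tg Tconvs. The ranges of control Tconvs and CD70Tg Tregs lay between and overlapped, at 36 to 72 and 39 to 63 for Il17rb, and 151 to 216 and 136 to 234 for Chdh. Il17rb was 22.5% to 33.3% of the Chdh value in the 4 control libraries and 10.3% to 46.3% in the 4 CD70Tg libraries, where the outer values came from the libraries with 1 and 6 Il17rb reads. Levels per kb divide by the length of all annotated exons of a gene joined, and depend on that length. Per kb of exon, the mean level of control Tregs was 109 for Actr8, 101 for Chdh, 42.5 for Il17rb and 10.1 for Cacna1d. In CD70Tg Tconvs the mean level per kb was 92.5 for Actr8, 4.99 for Chdh, 4.12 for Cacna1d and 1.62 for Il17rb, so that Chdh lay near the level of Actr8 in control Tregs and near that of Cacna1d in CD70Tg Tconvs.

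**Figure D2:**
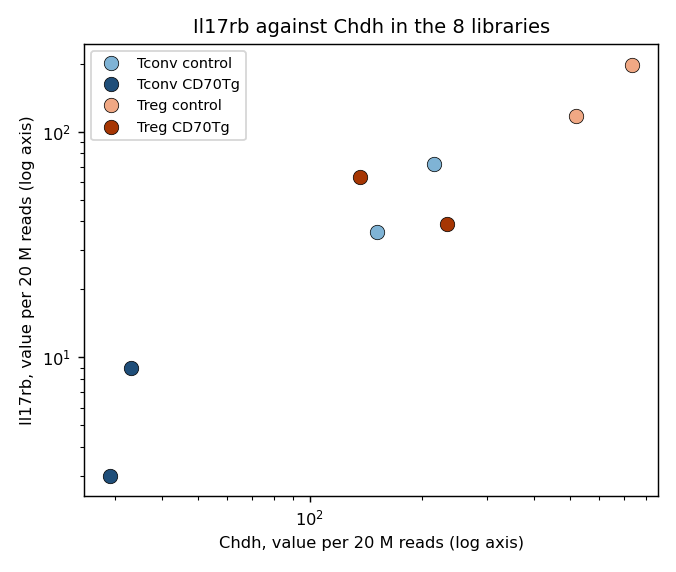
Il17rb against Chdh in the 8 libraries, both as value per 20 M reads on log axes, coloured by group. Control Tregs lie at the top right (Chdh 520 and 736), CD70Tg Tconvs at the bottom left (Chdh 29 and 33), and control Tconvs and CD70Tg Tregs lie together between them.

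In control mice, Tregs had more Il17rb and more Chdh than Tconvs. This comparison is tested, because it was not used to choose the genes, although its control libraries are an arm of the contrast that was. Chdh was 183.5 ± 46 in Tconvs and 628 ± 153 in Tregs (mean ± SD, n = 2), a log2 difference of 1.75 (SE 0.31) with an adjusted p of 0.00027 by limma (Benjamini-Hochberg over all 12816 genes, as for every adjusted p here). Il17rb was 54 ± 25.5 in Tconvs and 157.5 ± 57.3 in Tregs (n = 2), a log2 difference of 1.49 (SE 0.47) with an adjusted p of 0.017 by limma. Both passed the threshold used throughout, an adjusted p under 0.05 and a log2 difference over 1 in size, as did 19.2% of all tested genes. The Il17rb call was lost without the first control Tconv library (log2 difference 1.03, adjusted p = 0.19), without the second control Treg library (1.12, adjusted p = 0.16), and with no minimum value (adjusted p = 0.092). For Chdh the adjusted p lay between 4.9e-05 and 0.01 over the alternatives, and for Il17rb between 0.0032 and 0.19.

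Cacna1d was 60.5 ± 16.3 in control Tconvs and 127.5 ± 48.8 in control Tregs (n = 2), with a log2 difference of 0.99 (SE 0.38) and an adjusted p of 0.045 by limma, just under the size asked for (range of the adjusted p over the alternatives 0.028 to 0.35). Actr8 was 827 ± 15.6 in Tconvs and 979 ± 115 in Tregs (n = 2), with a log2 difference of 0.24 (SE 0.15) and an adjusted p of 0.21 by limma (0.17 to 0.69 over the alternatives). In CD70Tg mice, where the same comparison is given as values only, Tregs differed from Tconvs by 2.37 for Il17rb, 2.35 for Chdh, 0.23 for Cacna1d and 0.13 for Actr8 on the log2 scale.

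No tested gene further along the chromosome was called lower in either subset. Beyond the 4 genes, 54 rows of the table lie within 1 Mb of the locus. Of these, 16 have names derived from genomic clones and 17 were too low to test, which left 21 genes chosen by position alone, 1 on the side of Actr8 and 20 on the side of Cacna1d. In Tconvs, 0 of these 21 passed the threshold by limma in either direction, where 0.577% of all tested genes were called lower and 4.65% called in either direction. Of the 21, 5 had an unadjusted p under 0.05 (2 of them lower), limma-voom on numbers of reads called 0, and the smallest adjusted p was 0.053 (Prkcd, higher). Their median difference was 0.02, with 10 of 21 below 0, and the range was from -0.50 (Smim4) to 0.56 (Sfmbt1). In Tregs, 0 of the 21 were called lower and 1 was called higher, where 1.08% of all tested genes were called lower and 3.6% called in either direction. With shares this low, 0 of 21 lower is also near the share of all tested genes in both subsets. In Tregs 1 was lower at an unadjusted p under 0.05, limma-voom called the same gene, and the median was -0.03, with 11 of 21 below 0.

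The nearest tested gene on each side was not called. Selenok, which encodes a selenoprotein of the endoplasmic reticulum, starts beyond Actr8, at -40.7 kb from the shared start. It was 1367 and 1528 in control and 1332 and 1674 in CD70Tg Tconvs (log2 difference 0.05, SE 0.15, adjusted p = 0.92 by limma), and differed by 0.12 in Tregs (SE 0.15, adjusted p = 0.68). Dcp1a, which encodes an activator of mRNA decapping and starts 470.6 kb away, near the start of Cacna1d, differed by -0.07 in Tconvs (SE 0.12, adjusted p = 0.83) and by -0.18 in Tregs (SE 0.12, adjusted p = 0.44). The 470.6 kb between the shared start and the start of Dcp1a hold Chdh and most of Cacna1d, and no other tested gene starts there.

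The gene called in Tregs rose. Stab1, which encodes the scavenger receptor stabilin-1 and starts 1159.7 kb away, was 64 and 101 in control and 408 and 272 in CD70Tg Tregs (log2 difference 1.98, SE 0.40, adjusted p = 0.0058 by limma). In Tconvs it differed by 0.34 (adjusted p = 0.75), and its response did not differ between the subsets beyond the threshold (adjusted p = 0.24). The Stab1 call was lost without the first control or the first CD70Tg Treg library and with no minimum value. Gnl3, which encodes nucleostemin, differed by -0.67 in Tregs with an adjusted p of 0.023, under the size asked for.

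**Figure D3:**
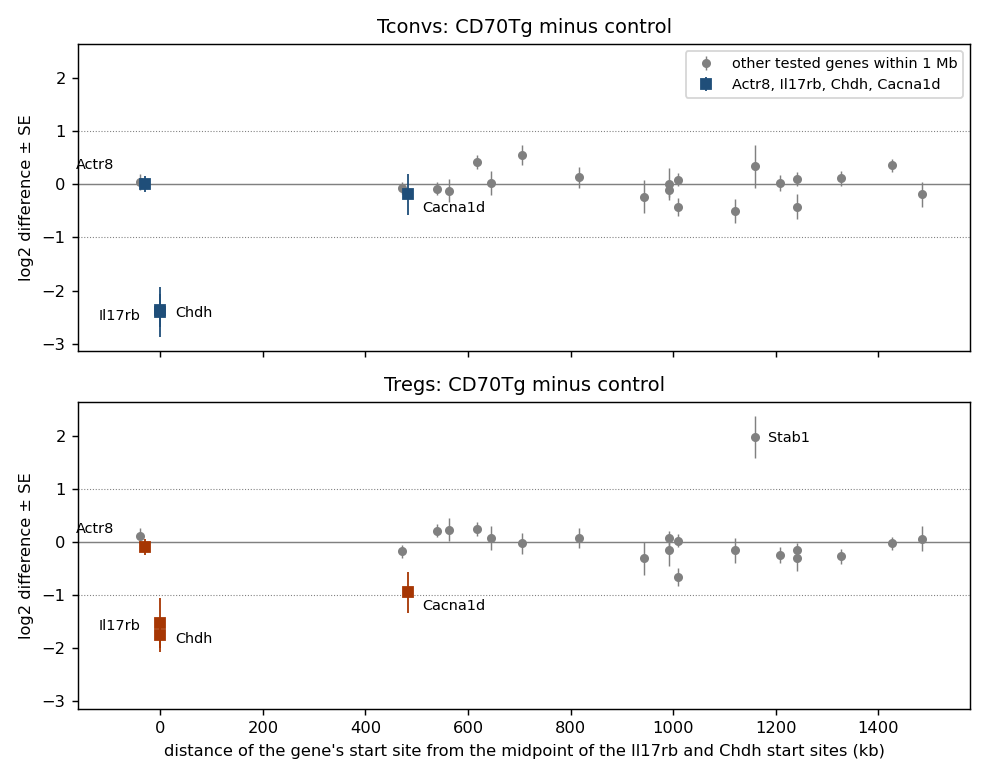
The log2 difference between CD70Tg and control libraries (± SE from the fit) against the distance of each gene's start site from the shared Il17rb and Chdh start, in Tconvs (top) and Tregs (bottom). Squares are Actr8, Il17rb, Chdh and Cacna1d, circles the 21 other tested genes, and dotted lines mark a difference of 1 in either direction. Il17rb and Chdh lie near -2.4 in Tconvs while the others lie between -0.50 and 0.56. In Tregs Stab1 lies at 1.98.

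Other pairs of genes that start back to back were looked at beside it. Among the 512 other pairs of tested protein-coding genes with divergent starts at most 1000 bases apart, 13 had a member called in Tconvs and 3 in Tregs. Of all tested genes 4.65% and 3.6% were called. Both members were called in 0 of these pairs in either subset, by limma or by limma-voom. A member was called lower in 0 of the pairs in Tconvs and 1 in Tregs. With so few, 0 pairs with both called was all but fixed, and nothing is read from it. At an unadjusted p under 0.05 for both members there were 6 pairs in Tconvs and 13 in Tregs. Across these pairs the differences of the 2 genes had a Pearson correlation of 0.13 in Tconvs and 0.09 in Tregs, over genes, which are not independent replicates. For Il17rb and Chdh, which were chosen by them, the differences were -2.41 and -2.37 in Tconvs and -1.52 and -1.76 in Tregs. How alike they are depends on the 5 added to each value. In Tconvs they were -3.04 and -2.51 with 1 added, and -1.47 and -1.98 with 20 added.

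Over the 8 libraries, Chdh was the third most similar of 12815 genes to Il17rb by the Pearson correlation of log2(value + 5), at 0.96. The libraries share the contrast that chose these genes, so that the ranks are a description. Nearer to Il17rb were Stk10, which encodes a kinase of lymphocyte migration (0.969), and the RNA 2010204K13Rik (0.967), and next came Ssbp3 (0.959) and the RNA 5830416I19Rik (0.958). The genes nearest to Chdh were 2010204K13Rik (0.985), Itga9, an integrin chain (0.983), Atp11b, a phospholipid flippase (0.975), Lgmn, a lysosomal protease (0.972), and Tmem243 (0.971), with Il17rb at rank 10. Apart from the pair itself, none of them lies on chromosome 14. Cacna1d had a correlation of 0.71 with Il17rb (rank 1105) and 0.77 with Chdh (rank 709), and Actr8 one of 0.70 (rank 1205) and 0.57 (rank 2558).

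Itga9 was 108 and 126 in control and 52 and 40 in CD70Tg Tconvs, and 165 and 224 in control and 95 and 115 in CD70Tg Tregs. Like Il17rb and Chdh, it was thus highest in control Tregs and lowest in CD70Tg Tconvs, with a smaller range. 5830416I19Rik was 119 and 139 in control Tconvs and 38 in each CD70Tg Tconv library, and 161 and 202 in control and 115 and 126 in CD70Tg Tregs. Stk10, at 8624 to 12073 over all libraries, is far more abundant and differed by only -0.27 in Tconvs and -0.20 in Tregs.

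Of 16 family members, ligands and adaptors listed, 7 reached the level for testing, and 0 of the 7 were called in either subset, where 4.65% of all tested genes were called in Tconvs and 3.6% in Tregs, so that 0 of 7 is near the share of all genes (median difference 0.00 in Tconvs and -0.05 in Tregs, beside 0.01 and -0.05 over all tested genes). At an unadjusted p under 0.05 there were 0 in Tconvs and, in Tregs, 1 lower and 1 higher, and limma-voom called 0. Il17ra, the partner chain of IL-17RB, was 8588 and 7433 in control and 8546 and 7487 in CD70Tg Tconvs (log2 difference 0.00). In Tregs it was 4096 and 4015 in control and 3699 and 3725 in CD70Tg libraries (-0.13, adjusted p = 0.58 by limma). Traf3ip2, which encodes the adaptor Act1 used by these receptors, differed by -0.08 and -0.05. The largest difference in the list was that of the adaptor Traf2 in Tregs (0.49, adjusted p = 0.061). The ligands Il25 and Il17b were listed at 0 in all 8 libraries. Il17rc, Il17rd and Il17re, the other receptor chains, lay between 0 and 32.

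Among the genes of choline and betaine metabolism, 11 of 20 were tested. Of the 11, 1 was called higher in each subset and 0 were called lower (median 0.14 in Tconvs and -0.20 in Tregs), near the shares of all tested genes called (4.65% in Tconvs and 3.6% in Tregs in either direction, 0.577% and 1.08% lower), with 1 lower in Tconvs and 2 in Tregs at an unadjusted p under 0.05. Limma-voom called 1 in each subset. Both called genes encode an enzyme that commits choline to phosphatidylcholine. Pcyt1b was 10 and 9 in control and 49 and 70 in CD70Tg Tconvs (log2 difference 2.13, SE 0.35, adjusted p = 0.00069 by limma), and Pcyt1a was 428 and 473 in control and 1223 and 1099 in CD70Tg Tregs (1.36, SE 0.17, adjusted p = 0.00012). Chka, a choline kinase, differed by -0.73 in Tconvs and -0.77 in Tregs and was not called (adjusted p = 0.16 and 0.13). Aldh7a1, which acts after Chdh on betaine aldehyde, differed by 0.26 in Tconvs and -0.17 in Tregs (adjusted p = 0.73 and 0.80). Bhmt, which uses betaine, was listed at 0 in all libraries.

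The other subunits of the INO80 complex, like Actr8, showed small differences. All 14 were tested and 0 were called in either subset by limma or limma-voom, near the 4.65% and 3.6% of all tested genes called in Tconvs and Tregs (median 0.00 in Tconvs and -0.16 in Tregs), with 1 higher in Tconvs and 2 lower in Tregs at an unadjusted p under 0.05. The largest differences were 0.37 for Ino80d in Tconvs (adjusted p = 0.12) and -0.41 for Ino80, the ATPase, in Tregs (adjusted p = 0.074).

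The calcium channel genes that were called were higher in CD70Tg mice. Of 22 voltage-gated subunits and store-operated entry genes, 13 were tested, with 2 called higher in Tconvs, 1 called higher in Tregs and 0 called lower (median 0.04 and 0.28, with 0 and 1 lower at an unadjusted p under 0.05). Of all tested genes 4.65% were called in Tconvs and 3.6% in Tregs in either direction, and 0.577% and 1.08% lower. Limma-voom called as many. Cacna1i, a T-type pore subunit, was 4 and 3 in control and 15 and 59 in CD70Tg Tconvs (log2 difference 2.08, adjusted p = 0.019 by limma). It reached 60 only in the CD70Tg Treg libraries, at 105 and 87, so that it was tested only through a CD70Tg group. Its control Tconv values lay near the floors of 3.1 and 6.3 of those libraries. Cacnb3, an auxiliary subunit, was 179 and 153 in control and 424 and 790 in CD70Tg Tconvs (1.78, adjusted p = 0.0098). Cacna1g, another T-type pore subunit, was 5 and 0 in control and 95 and 60 in CD70Tg Tregs (adjusted p = 0.0027). It reached 60 only in these CD70Tg libraries, so that the minimum value favoured this call, the 1 of the list in Tregs. The store-operated channel genes Orai1, Orai2, Orai3, Stim1 and Stim2 lay between -0.18 and 0.32 in both subsets, and none was called.

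Other genes of the type 2 programme, to which the IL-25 receptor belongs, were higher or did not pass both parts of the threshold. Of 13 listed, 7 were tested, with 3 called higher in Tconvs, 0 in Tregs and 0 called lower (median 0.35 and 0.38, with 1 lower in each subset and 3 higher in Tconvs and 2 in Tregs at an unadjusted p under 0.05), where 4.65% of all tested genes were called in Tconvs and 3.6% in Tregs. Limma-voom called 3 in Tconvs and 0 in Tregs. Il1rl1, the IL-33 receptor, was 37 and 28 in control and 196 and 389 in CD70Tg Tconvs (log2 difference 2.92, adjusted p = 1.9e-06 by limma). Rora, a nuclear receptor of innate lymphoid cells, rose by 1.63 (adjusted p = 5.8e-06) and Ccr8, a chemokine receptor, by 1.07 (adjusted p = 0.0024). In Tregs Rora differed by 0.70 (adjusted p = 0.019), under the size asked for. Il4ra, the IL-4 receptor chain, was 8243 and 8168 in control and 6572 and 5418 in CD70Tg Tconvs (-0.46, adjusted p = 0.023), under the size asked for. Gata3, the factor that sets the programme, differed by -0.07 in Tconvs and 0.05 in Tregs (adjusted p = 0.84 and 0.87). The cytokine genes Il4, Il5, Il13 and Il9 lay between 0 and 24 and were not tested.

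**Figure D4:**
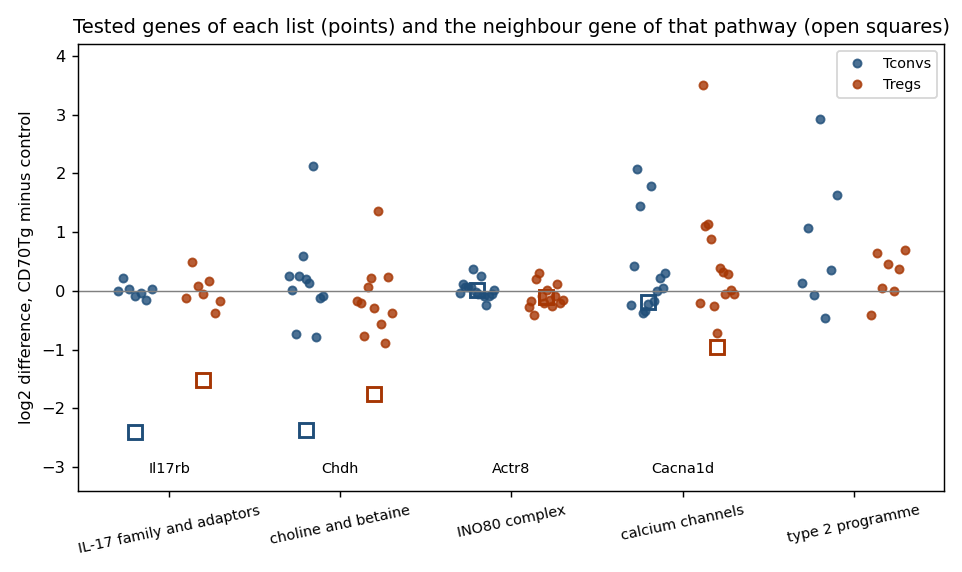
The log2 difference between CD70Tg and control libraries of each tested gene in the 5 lists (points, Tconvs and Tregs side by side), with Il17rb, Chdh, Actr8 and Cacna1d as open squares on the list of their pathway. Il17rb and Chdh lie under every point of their lists in both subsets, Actr8 lies among the INO80 subunits, and all called points lie above 0.

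Some invariant NKT cells carry IL-17RB, and some pass a CD3+ CD4+ gate. Markers of invariant NKT cells were in part lower where Il17rb was lower in Tconvs. Whether the cells with these markers are those with Il17rb cannot be told from sorted populations. Of 7 listed, 4 were tested, and 2 were called lower and 1 higher in Tconvs, where 0.577% of all tested genes were called lower and 4.65% in either direction. Zbtb16, which encodes the factor PLZF, was 119 and 151 in control and 29 and 19 in CD70Tg Tconvs (log2 difference -2.28, adjusted p = 0.018 by limma). It reached 60 only in the control Tconv libraries, so that the minimum value favoured a call lower in Tconvs and this call adds no support. Klrb1c, which encodes NK1.1, was 403 and 423 in control and 75 and 68 in CD70Tg Tconvs (-2.45, adjusted p = 0.0028). Traj18, which encodes the joining segment of the invariant receptor, was 196 and 185 in control and 116 and 104 in CD70Tg Tconvs (-0.77, adjusted p = 0.28). The variable segments Trav11 and Trav11d were 8 to 15 in control and 0 to 3 in CD70Tg Tconvs. Cxcr6 rose, from 1056 and 1388 to 3095 and 5738, and the sum of the list was 1800 to 2182 in control and 3318 to 5941 in CD70Tg Tconvs. The part of these cells in the lower Il17rb and Chdh values of Tconvs was not tested.

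In Tregs, Zbtb16, Trav11 and Trav11d were at or under the floor in all 4 libraries, with values of 0 to 6. At the depth of these libraries such values cannot tell a low level from none. Klrb1c was 64 and 36 in control and 0 and 11 in CD70Tg Tregs, the latter under the floor (adjusted p = 0.0035 by limma, not called by limma-voom). Klrb1a was 10 and 0 in control and 0 and 11 in CD70Tg Tregs, under the floor. The other markers, Traj18 and Cxcr6, were above the floor in every Treg library. Traj18 was 49 and 127 in control and 95 and 71 in CD70Tg Tregs, and Cxcr6 was 44 and 88 in control and 74 and 126 in CD70Tg Tregs. The sum of the list was 167 to 261 in control and 169 to 225 in CD70Tg Tregs. The part of these cells in the Treg values of Il17rb and Chdh was not tested.

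**Figure D5:**
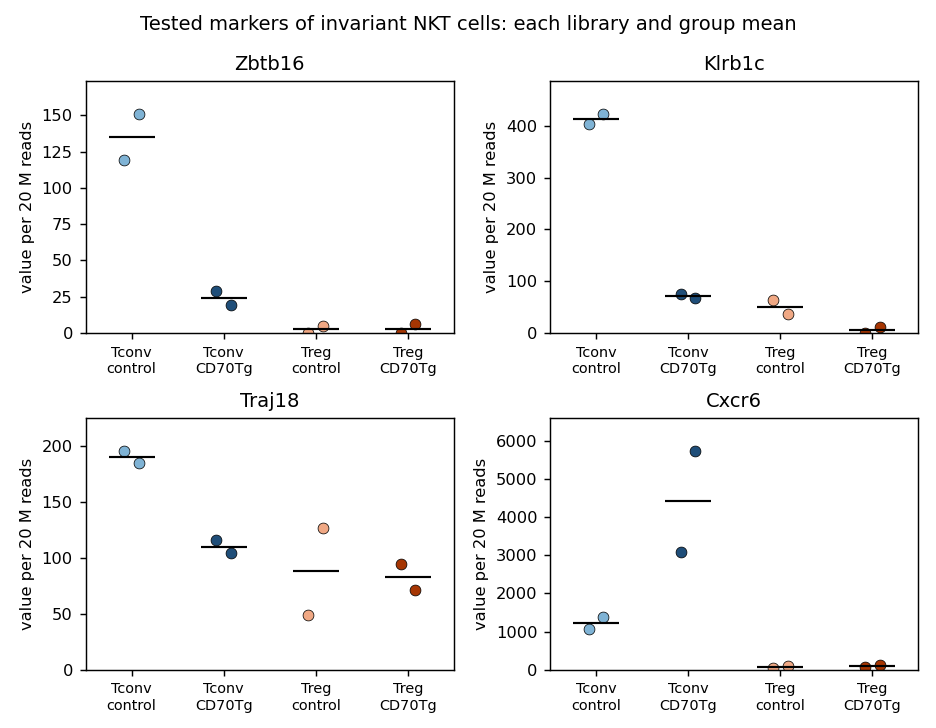
The value of each library (points, per 20 M reads, linear axis from 0) and the group mean (line) of the 4 tested markers of invariant NKT cells. Zbtb16 and Klrb1c drop in CD70Tg Tconvs, Traj18 goes from 185 and 196 to 104 and 116, Cxcr6 rises, and in Tregs Zbtb16 is at 0 to 6 in every library.

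Group 2 innate lymphoid cells also carry IL-17RB. Of 6 markers listed, 3 were tested (Il1rl1, Rora and Klrg1) and all were called higher in Tconvs and 1 (Klrg1) in Tregs, where 4.65% of all tested genes were called in Tconvs and 3.6% in Tregs, with sums of 442 to 454 in control and 1595 to 2771 in CD70Tg Tconvs. Of their defining genes Il5 and Il13 were at 0 to 11 in every library. Summed NK cell markers were 1161 to 1273 in control and 9705 to 11052 in CD70Tg Tconvs, and 380 to 527 and 3657 to 3692 in Tregs, most of it Nkg7, with Ncr1 at 0 to 2. The other tested gene of that list, Klrb1c, was lower in both subsets, as given above. Summed myeloid markers were 1493 to 1543 and 988 to 1383 in Tconvs and 2594 to 2631 and 2532 to 2772 in Tregs. Of these, Itgax was called higher in Tconvs (log2 difference 1.76, adjusted p = 0.015 by limma) and Itgam in Tregs (1.13, adjusted p = 0.013, not called by limma-voom). Under the size asked for, Itgam was lower in Tconvs (-0.95, adjusted p = 0.027) and Csf1r in Tregs (-0.67, adjusted p = 0.029). Cd8a was 17 and 28 in control and 508 and 608 in CD70Tg Tconvs (log2 difference 4.38, adjusted p = 9.8e-07 by limma), and 25 and 71 in control and 262 and 223 in CD70Tg Tregs (2.37, adjusted p = 0.0012). Of the 3 CD4 T cell and 4 Treg markers, 0 were called in either subset by limma or limma-voom. At an unadjusted p under 0.05, 0 of the CD4 T cell markers were past it, and of the Treg markers 1 was lower and 1 higher in Tconvs (Ctla4, 0.78, adjusted p = 0.0059) and 1 lower in Tregs. Before the sort, the cells were depleted with beads, among others against CD49b, GR1, CD11c, CD8β and MHCII, and the gate took CD3+ CD4+ cells, which leaves out innate lymphoid cells without CD3. The part of any remaining cells of these kinds in the values of the 4 genes was not tested.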

How the data were processed

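Libraries were prepared from sorted cells with the Ovation SoLo kit and sequenced paired end. The authors trimmed reads with Trimmomatic 0.36, mapped them to mm10 with STAR 2.5.3 and counted them with HTSeq 0.9.1. The annotation and strand setting are not given in the sources used here. The deposited score values are counts per 20 M reads, each rounded up (library totals 19963628 to 20164600). The table names the control columns KO where the labels say WT, and these were taken as the CD27+/- controls. Libraries are named in the order of the table.

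Of 52636 rows, 4131 named after genomic clones were left out, and of 97 names on several rows the row with the largest total kept the name. The value of 1 read was taken from the step between low values. It is less certain for the first control and second CD70Tg Tconv libraries. Positions came from GENCODE M21, which holds 99.6% of the identifiers. Tests used limma 3.58.1 in R 4.3.3 (limma-trend, log2(value + 5), 1 coefficient per group) on rows reaching 60 in 2 or more libraries. A count model was not used, since the values are not raw counts. The procedure was tested on simulated data.

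The 4 genes and all lists were chosen with earlier results of these data known, the neighbours by position (within 1 Mb). Genes named in the text were the 4 genes in every library, the nearest and the called neighbours, the called or most changed list members, and the 5 genes most like Il17rb and Chdh. Other list members, markers and neighbours named were picked after their values were seen. Alternatives were pseudocounts of 1 and 20, no minimum value, TMM or median-of-ratios factors, limma-voom on numbers of reads, a window of 500 kb, no threshold on the size of the difference, and leaving out each library.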

Additional observations from a re-analysis of the deposited data

How the results depend on the processing

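No paired analysis was possible because the columns of the table carry no replicate numbers. With a pseudocount of 1 the Tconv difference of Il17rb was -3.04, and with one of 20 it was -1.47, and that of Chdh was -1.98, since a larger pseudocount shrinks the differences of low genes. In control mice, the Treg against Tconv difference of Il17rb was 1.49 with no minimum value (adjusted p = 0.092) and ranged from 1.03 to 1.94 when each library was left out, with the call lost without the first control Tconv or the second control Treg library. That of Cacna1d was 1.01 with limma-voom on numbers of reads (adjusted p = 0.037), which passed the threshold, and ranged from 0.60 to 1.37 without each library, passing it at 1.37 (adjusted p = 0.028) without the first control Treg library. The number of positional neighbours called in Tregs was 0 with no minimum value, 0 within 500 kb, 2 with no threshold on the size of the difference, and 0 to 1 without each library. Of the 200 values under alternatives, 187 stayed on the same side of the threshold or within the spread between libraries. This count overstates stability, since many of the values could not move. The CD70Tg against control differences were unchanged with no minimum value, and when a library of the other subset was left out. That of Il17rb in Tconvs, for example, was -2.41 without any of the Treg libraries. Among the 187, differences near 0 changed sign. That of Actr8 in Tconvs (0.01) was -0.04 with TMM and -0.03 with median-of-ratios factors and -0.10 to 0.12 without each library, that of Actr8 in Tregs was -0.22 to 0.02 without each library, and that of Cacna1d in Tconvs -0.45 to 0.06. The differences of Il17rb and Chdh and the Treg difference of Cacna1d kept their sign in every alternative run. That was all but fixed, since in each case both CD70Tg libraries lay under both control libraries, and it adds no support. Leaving out each library gave Il17rb differences of -2.86 to -1.95 in Tconvs and -1.89 to -1.16 in Tregs, and Chdh differences of -2.62 to -2.12 and -2.15 to -1.38. Depth limits Il17rb in CD70Tg Tconvs, where a value stands for 1 read, and Il17rb and Cacna1d in CD70Tg Tregs, where values stand for 5 to 13 reads. With 2 libraries a group, the spread is shared over all groups.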
